A study of Mus musculus with 8 samples.

Results

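MOF peaks that carried H3K27ac but no H3K4me3 in newborn mouse epidermis were selected from the deposited MOF list. A MOF peak on chromosomes 1 to 19 was taken when it overlapped an H3K27ac peak by at least 1 bp and touched no H3K4me3 peak. The rule gave 699 regions of 17287 MOF peaks on these chromosomes (4.04%), and the whole list held 17546 peaks. Because the regions were chosen by their overlap with the marks, that overlap is a description and carries no test. They were set beside 11849 H3K27ac peaks that touched neither H3K4me3 nor MOF. Every library was prepared from the total epidermis of wild-type P0.5 mice (postnatal day 0.5), with MOF mapped by ChIPseq and the histone marks by Cut&Run. The peak lists hold no read counts per peak, the read totals that the study states were not used, and each antibody had 1 list, so no spread between replicates could be given. Intervals below are 95% and cover counting error only (exact Clopper-Pearson for shares, order statistics for medians).

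MOF (Kat8) is a histone acetyltransferase that places H4K16ac as the catalytic subunit of the MSL and NSL complexes. H3K27ac lies on active promoters and active enhancers, whereas H3K4me3 lies mainly on promoters, so H3K27ac peaks without H3K4me3 are commonly read as candidate enhancers. Enhancers of keratinocytes are known for binding p63, the transcription factor that specifies stratified epithelium, and AP-1, the dimers of Fos and Jun proteins that accompany differentiation. No sample lacking MOF was used here, so the lists describe where MOF lay and not what it did there.

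The label of the tissue was checked on promoters, which were defined as 1000 bp upstream to 100 bp downstream of a transcription start site (TSS). H3K4me3 lay at the promoters of 33 of 35 genes of the basal and adhesion list, 45 of 50 epidermal transcription factor genes, 32 of 40 hair follicle genes and 17 of 43 epidermal differentiation genes (39.5%), beside 60.6% of all protein-coding genes. It lay at 1 of 8 Langerhans and immune genes, 1 of 6 endothelial genes, 3 of 8 fibroblast genes and 3 of 7 melanocyte genes. H3K27ac lay at the promoters of 31 of 35 basal and adhesion genes and 41 of 50 epidermal transcription factor genes, beside 50.02% of all genes. It lay at 16 of 43 differentiation genes (37.2%), 2 of 7 melanocyte genes (28.6%), 1 of 8 fibroblast genes, 0 of 8 immune genes and 0 of 6 endothelial genes. By either mark, the differentiation list was below the share of all genes.

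AP-1 motifs were found at the H3K27ac summits of several regions high in H3K27ac, high in MOF score or near a listed gene. Sequences are shown because AP-1 is a known regulator of keratinocyte enhancers. The AP-1 motif was searched as TGANTCA on both strands within 150 bp of a summit. Each sequence is from GRCm38.p6 (mm10), plus strand, 5′ to 3′, and runs from 20 bases beyond the outermost match to 20 bases beyond the H3K27ac summit, or from summit to match where that is the order. Capitals mark the matches. The region near Ankrd55 (chr13:112054933-112055043) had the highest H3K27ac of all 699, that near Lyve1 (chr7:110878048-110878160, in an intron of Mrvi1) had a tandem pair of matches separated by a single base, and that near Jade2 (chr11:51866089-51866240) had a spaced pair. The regions near Epgn (chr5:91038824-91038882) and Fam50b (chr13:34715536-34715600) were among the 10 highest in MOF score, although that near Epgn ranked 626 of 699 in H3K27ac. The region near Ptch1 (chr13:63672537-63672710) belonged to the hair follicle list and ranked 59 in H3K27ac.
Ankrd55: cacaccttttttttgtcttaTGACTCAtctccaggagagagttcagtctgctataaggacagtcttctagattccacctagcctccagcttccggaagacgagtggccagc
Lyve1: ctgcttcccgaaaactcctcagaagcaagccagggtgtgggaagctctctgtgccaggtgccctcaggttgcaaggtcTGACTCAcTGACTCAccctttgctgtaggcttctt
Jade2: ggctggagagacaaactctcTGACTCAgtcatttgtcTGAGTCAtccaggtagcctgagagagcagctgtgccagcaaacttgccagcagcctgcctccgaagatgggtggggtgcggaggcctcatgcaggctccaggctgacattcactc
Epgn: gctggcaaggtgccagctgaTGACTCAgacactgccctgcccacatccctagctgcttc
Fam50b: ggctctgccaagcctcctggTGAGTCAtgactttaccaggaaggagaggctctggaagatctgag
Ptch1: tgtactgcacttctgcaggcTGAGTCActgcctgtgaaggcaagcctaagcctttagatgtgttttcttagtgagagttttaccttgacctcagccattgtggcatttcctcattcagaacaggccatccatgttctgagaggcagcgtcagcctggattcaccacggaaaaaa
The regions that hold them were intronic or intergenic in curated RefSeq transcripts. The match lay 15 bp from the H3K27ac summit near Epgn, 21 bp near Fam50b and 130 bp near Ptch1. Near Lyve1 the pair lay 61 bp and 69 bp from the summit.

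The 699 regions had somewhat lower MOF scores than the whole list. Their median MOF score was 553 (529 to 571), against 580 (573 to 587) over all MOF peaks and 651 (646 to 651) over the 6006 MOF peaks with both marks, and the intervals did not overlap. The 9400 MOF peaks with neither mark had 571 (567 to 571), which overlapped the interval of the regions. The scale of this score was not stated, so it only ranks peaks within the list. Scores of the regions ran from 205 to 3338, with the middle 50% between 423 and 718. Of the regions, 40 (5.72%) were among the top 10% of all MOF scores and 62 (8.87%) among the bottom 10%.

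In width, the regions lay between MOF peaks with both marks and those with neither mark. Their median width was 554 bp (514 to 635), compared with 965 bp (949 to 983) for MOF peaks with both marks and 366 bp (360 to 370) for the 9400 MOF peaks with neither mark. The 1182 MOF peaks with H3K4me3 and no H3K27ac had 629 bp (592 to 688), which overlapped the interval of the regions. Each MOF row also gave an inner start and end, without stating what they mark, and the median length of this inner stretch was 237 bp (229 to 245) in the regions, 327 bp (322 to 333) with both marks and 212 bp (211 to 214) with neither. A wide peak has more bases with which to meet a histone mark, so the order of widths is tied to the rule.

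MOF and H3K27ac mostly overlapped over the bodies of both peaks. The median overlap was 294 bp (279 to 308), ranging from 3 to 1302 bp. In 610 of 699 regions (87.3%) the inner stretch itself lay on H3K27ac, and in 516 (73.8%) the H3K27ac summit lay inside the MOF peak. The centre of the inner stretch was a median 160 bp (145 to 176) from the H3K27ac summit. A region met a single H3K27ac peak in nearly all cases, with 31 regions (4.43%) meeting 2 or more.

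H3K4me3 was distant from most regions. The median gap to the nearest H3K4me3 peak was 14472 bp (12695 to 16677), and 416 regions (59.5%) had none within 10 kb. It lay within 5 kb of 164 regions (23.5%) and within 1 kb of 65 (9.30%). In 32 regions (4.58%) the H3K27ac peak itself reached H3K4me3 although MOF did not. At the edges of the rule, 2 regions shared 10 bp or fewer with H3K27ac and 18 had H3K4me3 within 100 bp. On the other side, 1 MOF peak with both marks shared 10 bp or fewer with H3K4me3, and 19 MOF peaks with neither mark had H3K27ac within 100 bp.

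The regions lay far from promoters, at distances like those of H3K27ac peaks without MOF. From the centre of the MOF peak, the median distance to an annotated TSS was 27311 bp (23569 to 31295), and 30 regions (4.29%, 2.91 to 6.07) lay within 1 kb. For H3K27ac peaks without H3K4me3 or MOF, measured from the summit, the median was 25343 bp (24603 to 26084) and the share within 1 kb was 3.29% (2.98 to 3.63). MOF peaks with both marks had a median of 261 bp, and 77.1% lay within 1 kb. Introns held 333 regions (47.6%), the intergenic space 322 (46.1%), exons 23 (3.29%) and promoters 21 (3.004%). The MOF-free H3K27ac peaks were divided in near equal measure, with 48.9% in introns, 45.1% in the intergenic space, 3.80% in exons and 2.19% in promoters. Relative to the nearest protein-coding TSS, 57.8% of the regions (54.04 to 61.5) and 57.3% of the MOF-free peaks (56.4 to 58.2) lay downstream.

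**Figure D1:**
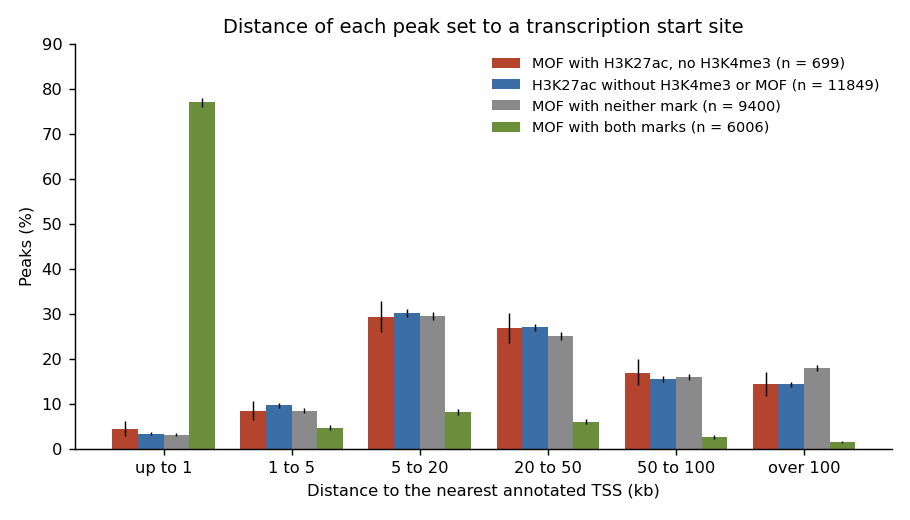
Share of peaks (y axis, percent) by distance to the nearest annotated TSS (x axis, classes in kb) for MOF peaks with H3K27ac but no H3K4me3, H3K27ac peaks without H3K4me3 or MOF, MOF peaks with neither mark and MOF peaks with both marks. Bars are shares and lines are exact 95% intervals. The first 3 sets had 4.29%, 3.29% and 3.16% within 1 kb, against 77.1% of the MOF peaks with both marks. Beyond 100 kb they had 14.3% (11.8 to 17.1), 14.3% (13.7 to 14.9) and 17.9% (17.2 to 18.7).

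Only a small share of distal H3K27ac carried MOF. Of 12654 H3K27ac peaks without H3K4me3, 805 overlapped a MOF peak (6.36%, 5.94 to 6.80), compared with 6404 of 17494 H3K27ac peaks with H3K4me3 (36.6%, 35.9 to 37.3). With only the upper 50% of MOF scores, the distal share was 2.77% (2.49 to 3.07). Of these 805 peaks, 700 were met by one of the 699 regions and 105 were met only by MOF peaks that reached H3K4me3 elsewhere. Among H3K27ac peaks with no H3K4me3 within 5 kb, 568 of 9304 overlapped MOF (6.10%, 5.63 to 6.61). By chromosome, the share ran from 4.30% (24 of 558 peaks on chromosome 8) to 8.51% (40 of 470 on chromosome 14), and the intervals of these extremes, 2.77 to 6.33 and 6.15 to 11.4, overlapped.

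MOF was centred on the distal H3K27ac summits. At the summit base, a MOF peak covered 4.77% (4.41 to 5.16) of H3K27ac peaks without H3K4me3. This fell to 2.53% at 500 bp upstream in genome coordinates and 2.83% at 500 bp downstream, and to 1.78% and 1.79% at 1 kb. At 5 kb it was 0.822% and 1.004%, and at 50 kb 1.11% and 0.980%. Where no H3K4me3 lay within 5 kb, the summit value was 4.54% (4.12 to 4.98) and the values at 1 kb were 1.09% and 0.978%. The summit values with and without this limit had overlapping intervals. At H3K27ac summits with H3K4me3 the value was 30.8% (30.2 to 31.5) at the summit and 1.29% and 1.21% at 50 kb.

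**Figure D2:**
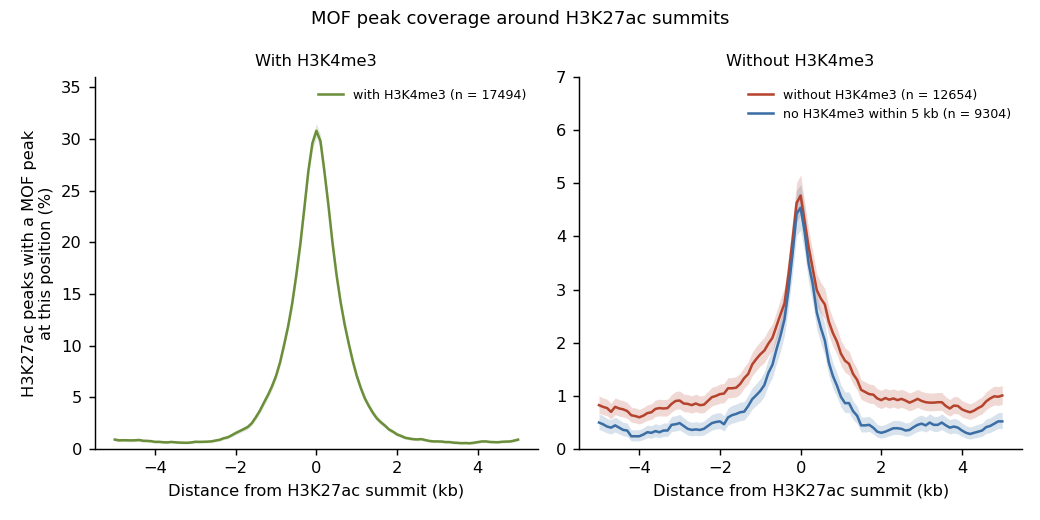
Share of H3K27ac peaks (y axis, percent) with a MOF peak at each distance from the H3K27ac summit (x axis, kb, in the direction of genome coordinates), with shaded exact 95% intervals; the y axes of the panels differ. MOF covered 30.8% of summits with H3K4me3 (left) and 4.77% of those without (right), with 4.54% where no H3K4me3 lay within 5 kb.

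MOF was more frequent on the wider and higher distal H3K27ac peaks. The 805 distal peaks with MOF had a median width of 436 bp (416 to 452) and a median fold enrichment, the height over the local background of the same library, of 4.50 (4.34 to 4.60). The 11849 without MOF had 365 bp (360 to 369) and 4.27 (4.24 to 4.29). Since a wide peak is more easily met, the summit base alone was also examined. Peaks whose summit was covered by MOF (n = 604) had a median width of 417 bp (392 to 439) and a fold enrichment of 4.45 (4.28 to 4.59), against 367 bp (362 to 371) and 4.27 (4.25 to 4.30) for the other 12050, and the intervals of the fold enrichments overlapped.

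When all H3K27ac peaks were divided into 5 classes of equal number by width, MOF covered the summits of distal peaks in 4.22% of the narrowest class (3.63 to 4.86) and 8.13% of the widest (5.76 to 11.1). In the same classes, peaks with H3K4me3 had 16.4% (14.7 to 18.2) and 42.1% (40.8 to 43.4). By fold enrichment, the distal summits went from 3.97% (3.37 to 4.66) in the lowest class to 9.06% (6.71 to 11.9) in the highest, and those with H3K4me3 from 14.9% (13.5 to 16.4) to 47.0% (45.7 to 48.3). Hence the lower frequency of MOF at distal H3K27ac was seen within classes of width and within classes of height. Peaks were not matched inside a class. With both divided at once, the distal share was the lower one in 25 of 25 classes, the smallest of which held 33 distal peaks.

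**Figure D3:**
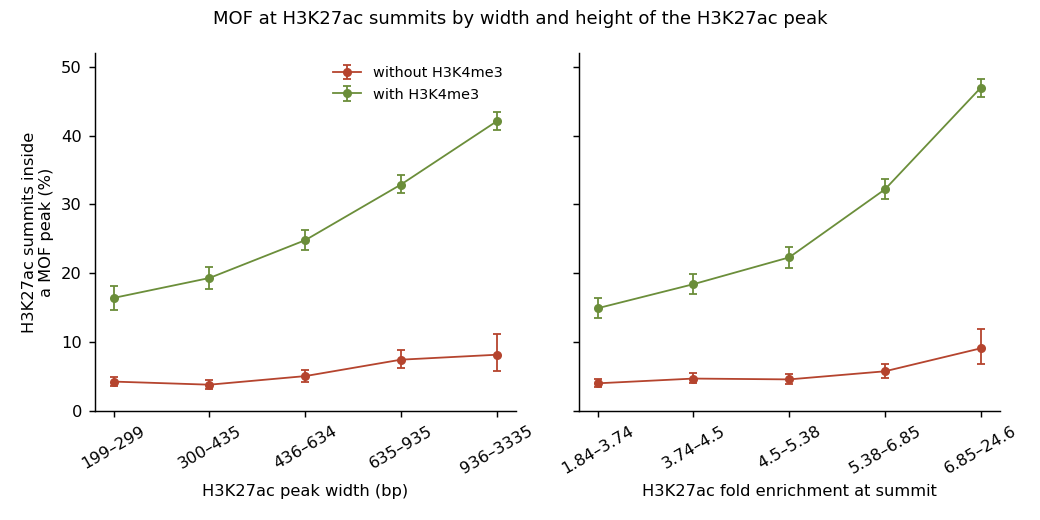
Share of H3K27ac summits inside a MOF peak (y axis, percent) by class of H3K27ac width in bp (left) or fold enrichment (right), for peaks with and without H3K4me3; points are shares and lines exact 95% intervals. In the highest class of fold enrichment MOF covered 9.06% of summits without H3K4me3 and 47.0% of those with it.

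Isolated and crowded distal H3K27ac peaks carried MOF at shares with overlapping intervals. Peaks without H3K4me3 were joined into clusters when separated by 12.5 kb or less. MOF lay on 6.49% (5.91 to 7.10) of peaks standing alone, 6.31% (5.51 to 7.20) in pairs, 5.92% (4.92 to 7.05) in clusters of 3 or 4, and 6.65% (4.81 to 8.91) in clusters of 5 or more.

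The base composition of the regions was closer to that of other peaks away from promoters than to that of MOF peaks with both marks. In windows of 150 bp on either side of the MOF centre, the median GC content was 50.8% (50.5 to 51.2) in the regions and 60.8% (60.5 to 60.8) in MOF peaks with both marks. The median ratio of observed to expected CpG was 0.217 (0.206 to 0.229), against 0.724 (0.714 to 0.733). MOF peaks with neither mark had 50.2% and 0.223, so these values were not particular to H3K27ac. Around H3K27ac summits the distal peaks had a CpG ratio of 0.213 with MOF and 0.198 without, with intervals of 0.202 to 0.221 and 0.195 to 0.200. Their GC content was 52.2% (51.8 to 52.8) with MOF and 50.5% (50.5 to 50.8) without, with intervals that did not overlap. For the 700 distal peaks met by one of the regions, GC content was 52.2% (51.5 to 52.8), again apart from that without MOF, whereas the CpG ratio of 0.211 (0.198 to 0.221) overlapped it. Repeated sequence was rare. Only 4 regions (0.572%) had more than 50% of their 31-base words elsewhere in the genome, compared with 1548 of 9400 MOF peaks with neither mark (16.5%), 0.699% of MOF peaks with both marks and 0.152% of MOF-free distal H3K27ac peaks. These 4 regions were nearest to Sfi1, Gsdmc, Ap1ar and Fam205a1. Reads in such sequence may be hard to place, which was not tested at the length of the reads.

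AP-1 motifs were frequent at the regions, and distal H3K27ac without MOF held them at a share with an overlapping interval. Within 150 bp of the H3K27ac summit, 140 of 699 regions (20.03%, 17.1 to 23.2) held a match, and so did 2275 of 11849 MOF-free distal peaks (19.2%, 18.5 to 19.9). The share was 6.18% (5.61 to 6.80) at H3K27ac with H3K4me3 and MOF, and 8.90% over all windows of this length on chromosomes 1 to 19. Around the MOF centre, 16.7% of the regions (14.04 to 19.7) held a match, against 8.78% of MOF peaks with neither mark and 5.84% of those with both. The matches were densest beside the summit rather than on it. In the regions there were 0.558 matches per kb within 50 bp of the summit, 0.866 at 100 to 200 bp and 0.320 at 700 to 1000 bp, and the MOF-free peaks gave 0.535, 0.841 and 0.338.

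The p63 motif was searched as a pair of its known half-sites. It was found at 17 regions (2.43%, 1.42 to 3.87), 2.21% (1.95 to 2.49) of MOF-free distal peaks and 0.620% of genome windows. For TEAD (CATTCCA), which acts with the coactivator Yap in basal cells, the shares were 6.87% of the regions, 7.16% of MOF-free peaks and 4.91% of genome windows. For RUNX (AACCACA) they were 6.15% and 6.42%, and for C/EBP (TTGCNNAA) 12.02% and 12.7%, and the intervals of each pair overlapped. Over the genome RUNX had 7.05% and C/EBP 13.7%, so neither was more frequent in the regions than in all windows. The GRHL motif (AACCNGGTT) was found in 3 regions, too few to compare. All of these letters were searched on both strands, and a match describes the sequence and not binding.

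Motifs of promoters were less frequent in the regions than at H3K27ac with H3K4me3 and MOF. The SP motif (GGGCGG) was found at 10.7% of the regions (8.53 to 13.3), 9.11% of MOF-free distal peaks (8.59 to 9.64) and 54.8% of H3K27ac peaks with H3K4me3 and MOF, with 2.95% over the genome. NRF1 was found at 2 regions and at 6.70% of H3K27ac peaks with H3K4me3 and MOF. ETS (CCGGAAGT) was found at 1 region and at 5.17% of those peaks. No Rfx2 peak overlapped any of the 699 regions, which allows a share of up to 0.429% (3 counts), whereas 173 of all 17287 MOF peaks (1.001%) met one. Rfx2 regulates ciliary genes through the X-box.

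Around the H3K27ac summit, CTCF was the only 1 of the 18 motifs searched whose interval in the regions did not overlap that in MOF-free distal peaks, and the result depended on the set and the window. CTCF is the DNA-binding protein that halts loop extrusion at domain borders and insulators. Its motif lay at 29 regions (4.15%, 2.80 to 5.90) and 207 MOF-free distal peaks (1.75%, 1.52 to 1.999). Over the genome the share was 0.710%, at H3K27ac with H3K4me3 and MOF it was 5.48%, and around the centres of MOF peaks with neither mark 3.79%. Around the MOF centre, 20 regions held a match (2.86%, 1.76 to 4.38), an interval that overlapped that of the MOF-free summits, and the share over all MOF peaks was 4.38% (4.08 to 4.69). In that window the GATA motif (AGATAAG) stood apart from the MOF-free summits instead, at 2.43% (1.42 to 3.87) against 4.53% (4.16 to 4.92). Its share was 4.41% over the genome and 2.43% around the centres of all MOF peaks, so the low share was not particular to the regions. At the H3K27ac summit GATA lay at 3.29% of the regions, with an interval that overlapped that of the MOF-free summits. Over all 805 distal peaks with MOF, SP also stood apart at the summit, at 12.2% (9.99 to 14.6). The 29 regions had a median MOF score of 541 (432 to 686) and an H3K27ac fold enrichment of 4.91 (4.16 to 5.50), whose intervals included the medians of all regions, 553 and 4.62.

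**Figure D4:**
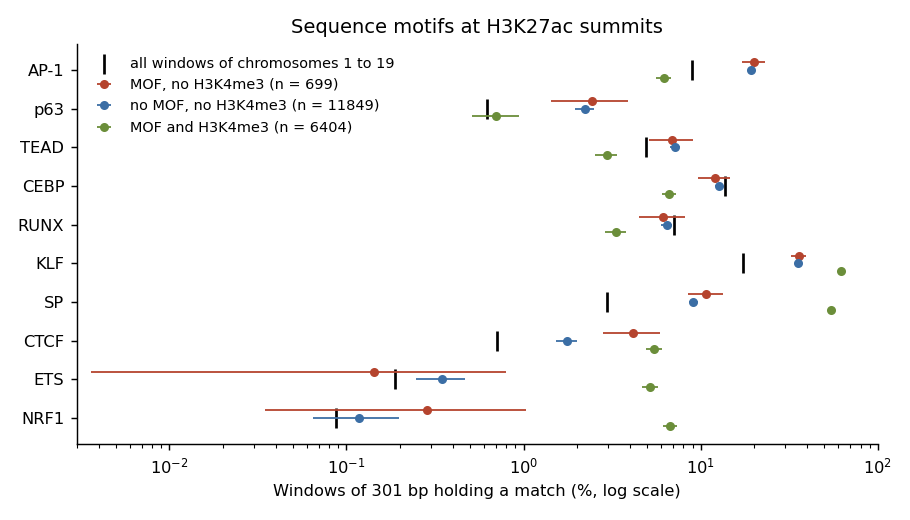
Share of windows of 150 bp on either side of the H3K27ac summit holding a match (x axis, percent on a log scale) for 10 motifs, in the regions with MOF and no H3K4me3, in H3K27ac peaks with neither, and in H3K27ac peaks with both. Points are shares, lines exact 95% intervals and black ticks the share over all windows of chromosomes 1 to 19. AP-1 stood at 20.03% and 19.2% in the distal sets and 6.18% with H3K4me3, and CTCF at 4.15% and 1.75% in the distal sets.

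Among themselves, the regions showed little relation between MOF score and H3K27ac. Over 699 regions from 1 library per antibody, Spearman's rho was 0.05 between MOF score and H3K27ac fold enrichment, -0.02 between MOF score and H3K27ac width, and 0.11 between the widths. Regions with no H3K4me3 within 5 kb had a higher median H3K27ac fold enrichment (4.84, 4.63 to 5.002) than those with H3K4me3 nearby (4.04, 3.89 to 4.26). The median widths of their H3K27ac peaks, 459 bp (442 to 497) and 498 bp (430 to 546), had overlapping intervals. Intronic and intergenic regions were alike in MOF score, with medians of 552 and 556. AP-1 matches lay at 24.2% (19.6 to 29.3) of intergenic and 17.4% (13.5 to 21.9) of intronic regions, with overlapping intervals.

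**Figure D5:**
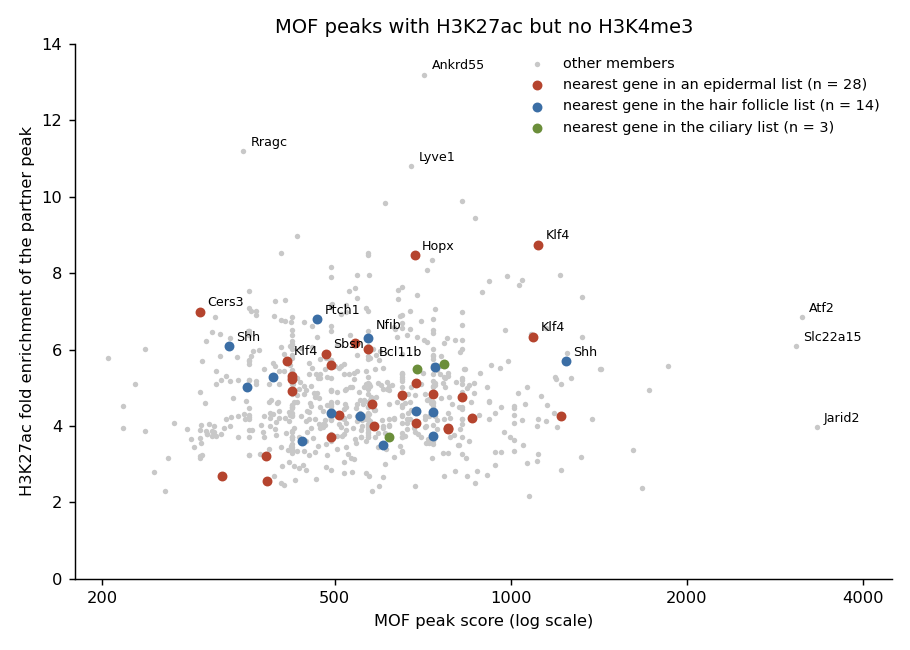
MOF score (x axis, log scale) against H3K27ac fold enrichment of the partner peak (y axis) for each of the 699 regions, with the nearest protein-coding gene written for some. Colours mark regions whose nearest gene is in an epidermal (28 regions), hair follicle (14) or ciliary (3) list. The highest MOF scores, near Jarid2, Atf2 and Slc22a15, were not the highest in H3K27ac, and rho was 0.05 over all regions.

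The regions with the highest MOF scores were spread over the range of H3K27ac. The middle 50% of all regions had fold enrichments between 3.94 and 5.59. The first was intergenic (chr13:44500836-44501942), 229385 bp upstream of Jarid2, a cofactor of the Polycomb complex PRC2, with a score of 3338 and an H3K27ac fold enrichment of 3.97. It shared only 76 bp with its H3K27ac peak, its inner centre lay 1121 bp from the summit, and 24.8% of its 31-base words were found elsewhere in the genome. The next lay in an intron of Atf2, which encodes a bZIP transcription factor (chr2:73867763-73868120), with a score of 3146 and a fold enrichment of 6.85, and it shared 24 bp with H3K27ac and had 14.9% repeated words. An intergenic region upstream of Slc22a15, a solute carrier gene (chr3:101948565-101948888), scored 3080 and had a fold enrichment of 6.09, with 121 bp shared and 16.7% repeated words. The fourth, in an intron of Copg2 with Mest as the nearest gene, scored 1859. The remaining 6 of the top 10 scored between 1376 and 1724. Among these 6, Prkch encodes a protein kinase C of differentiating keratinocytes, Epgn encodes the EGF receptor ligand epigen, and Sfi1 encodes a centrosomal protein. The region in Sfi1 had a score of 1681 but a fold enrichment of only 2.37. The region in Prkch lay 46 bp from an H3K4me3 peak. The others were nearest to Fam50b, Akirin1 and Arhgef28.

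The highest H3K27ac belonged to regions with MOF scores from 349 to 1116. The region upstream of Ankrd55 (chr13:112054466-112055178) had a fold enrichment of 13.2 and a MOF score of 712. The region near Rragc, which encodes a GTPase of nutrient sensing (chr4:124014834-124015888), had 11.2 and 349. The region nearest to Lyve1, known as a hyaluronan receptor of lymphatic vessels (chr7:110877727-110878407), had 10.8 and 677. The remaining 7 of the top 10 had a fold enrichment between 8.53 and 9.89 and were nearest to Txlnb, Tmem130, Jade2, Efnb2, Klf4, Fez2 and Wsb1. In these 10 regions, AP-1 matched within 150 bp of the H3K27ac summit in 6, beside 20.03% of all regions. Over all regions the share was 20.9% (16.8 to 25.6) above the median fold enrichment and 19.1% (15.2 to 23.7) at or below it.

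The regions were spread over many genes. Assigned to the nearest protein-coding TSS, they fell to 624 of 21000 genes (2.97%), whereas MOF-free distal H3K27ac peaks fell to 5081 genes (24.2%). Of the 624 genes, 561 had 1 region, 54 had 2 and 9 had 3 or more. Fgfr2, the receptor of keratinocyte growth factors, had the most, with 5 regions. MOF lay on 5 of its 25 distal H3K27ac peaks, beside 6.36% over all genes. For Sfi1 the count was 6 of 10, for Boc 4 of 7 and for Klf4 3 of 18. Genes picked for many regions have many such peaks with MOF by construction. Sfi1 had 4 regions, 1 of them in repeated sequence, and Klf4, Zfp36l1, Boc, Tprg, Arhgef28, Lipc and Lypd6b had 3 each. The median distance to the assigned TSS was 37095 bp, and the gene nearest to a region need not be the gene it regulates.

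Epidermal genes were often nearest to a region, and they also had many distal H3K27ac peaks. Of 128 genes in the 3 epidermal lists, 20 (15.6%, 9.81 to 23.1) were nearest to a region, against 2.97% of all genes, and 94 (73.4%) were nearest to a MOF-free distal peak, against 24.2%. Counted over peaks, MOF lay on 37 of the 455 distal H3K27ac peaks of these genes (8.13%, 5.79 to 11.03), compared with 6.36% over all genes. The interval thus included the share of all genes, and the higher count of genes went together with more distal H3K27ac peaks per gene.

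Epidermal transcription factor genes had 19 regions at 12 of 50 genes (24%), beside 2.97% of all genes, and 88% of the list was nearest to a MOF-free distal peak. These genes included Trp63, Klf4, Klf5, Gata3, Grhl2, Cebpb, Hes1, Hopx, Fosl2 and Bcl11b. Klf4, needed for the epidermal barrier, had 3 intergenic regions upstream of its TSS. They lay at 193550, 396622 and 581298 bp, with H3K27ac fold enrichments of 6.34, 5.71 and 8.75 and MOF scores of 1093, 414 and 1116. Hopx, a homeodomain-only protein of differentiating cells, had a region 28742 bp downstream of its TSS (chr5:77065884-77067166) with a fold enrichment of 8.47 and a score of 686. For Bcl11b, the region with the higher H3K27ac lay 722262 bp downstream with 6.01 and 571. Trp63, which encodes p63, had a region in its intron, 47496 bp downstream of the TSS (chr16:25848585-25850238), with a fold enrichment of 3.94 and a score of 781. MOF lay on 1 of 16 distal H3K27ac peaks of Trp63, 3 of 18 of Klf4 and 2 of 29 of Gata3. Over the list it lay on 24 of 296 (8.11%, 5.26 to 11.8), an interval that included the 6.36% over all genes.

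Hair follicle genes had 14 regions at 12 of 40 genes (30%), and 77.5% of the list was nearest to a MOF-free distal peak, beside 2.97% and 24.2% of all genes. The 12 genes were Shh, Ptch1, Gli3, Sox9, Nfib, Tcf7l1, Tcf7l2, Wnt10a, Axin2, Bmp2, Dlx3 and Krt79. Shh, Ptch1 and Gli3 belong to the Hedgehog pathway, for which no separate list was counted. Shh, the ligand, had a region 163388 bp upstream with a fold enrichment of 5.69 and a score of 1244, and another 222825 bp upstream with 6.09 and 330. Both lay in an intron of the noncoding gene 9530036O11Rik. Ptch1, the receptor, had a region 99138 bp upstream (chr13:63671911-63673284) with 6.80 and 467. Gli3, a transcription factor of the pathway, had a region 868 bp from its TSS with 5.28 and 392, which lay 409 bp from H3K4me3, and MOF lay on 0 of the 7 distal H3K27ac peaks of Gli3. Nfib, a transcription factor of follicle stem cells, had a region with 6.30 and 571 that lay 156 bp from H3K4me3, and MOF lay on 0 of its 17 distal H3K27ac peaks, the partner of the region being one that reached H3K4me3. Sox9, the follicle stem cell factor, had regions 641428 bp upstream and 331842 bp downstream. MOF lay on 12 of 145 distal H3K27ac peaks of the list (8.28%, 4.35 to 14.01), an interval that also included 6.36%.

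In the adhesion and differentiation lists, 8 genes were nearest to a region, and the intervals of both lists overlapped those of the transcription factor (13.1 to 38.2) and hair follicle (16.6 to 46.5) lists. Of the basal and adhesion genes, 5 of 35 (14.3%, 4.81 to 30.3) had 6 regions: Lama3, a laminin 332 chain, had 2, and Egfr, Cd44, Cdh3 (P-cadherin) and Col17a1 (a hemidesmosomal collagen) had 1 each. Their fold enrichments ran from 2.56 at Cdh3 to 5.13 at Lama3. Of the differentiation genes, 3 of 43 (6.98%) had a region, with an interval of 1.46 to 19.1 that included the 2.97% of all genes. Cers3, which makes the ceramides of the barrier, had a region in its intron (chr7:66770927-66771328) with a fold enrichment of 6.99 and a score of 294. Sbsn, a gene of suprabasal cells, had a region 1474 bp upstream with 5.89 and 484, which lay 58 bp from H3K4me3 and whose H3K27ac peak reached it. The region of Dsc1, a desmosomal cadherin, lay 8 bp from the TSS with 4.84 and 736. MOF lay on 11 of 117 distal H3K27ac peaks of the basal and adhesion genes (9.40%) and 2 of 42 of the differentiation genes (4.76%), with intervals of 4.79 to 16.2 and 0.582 to 16.2, both of which included 6.36%.

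The mitochondrial respiratory list had no region, which at its size did not set it apart from all genes. None of its 62 genes was nearest to a region, with an interval of 0 to 5.78 that included 2.97%, and 19.4% were nearest to a MOF-free distal peak, beside 24.2% of all genes. MOF lay on 0 of their 13 distal H3K27ac peaks, which allows a share of up to 23.1% (3 counts), above the 6.36% over all genes. H3K4me3 lay at the promoters of all 62, and MOF at 41 (66.1%), beside 42.4% of all protein-coding genes with H3K4me3. Of 56 ciliary genes, 2 (3.57%) had 3 regions, namely Ift43 and Ttc8, beside 2.97% of all genes. MOF lay on 3 of their 28 distal H3K27ac peaks (10.7%, 2.27 to 28.2), an interval that included the 6.36% over all genes. All 56 had H3K4me3 at the promoter and 26 (46.4%) had MOF there, near the 42.4% of genes with H3K4me3. In the epidermal lists, 95 of 128 genes had H3K4me3 at the promoter and 30 of these had MOF there (31.6%, 22.4 to 41.9), below 42.4%, although the interval reached that of all such genes (41.5 to 43.3). No region fell nearest to a melanocyte, fibroblast, immune or endothelial gene of the lists, which had 2, 9, 2 and 12 distal H3K27ac peaks. These lists of 7, 8, 8 and 6 genes were too short to compare with the 2.97% of all genes, the upper bounds of their intervals being 36.9% or more.

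Distal MOF and promoter MOF were compared at the nearest gene. MOF lay at the promoter of the nearest gene for 249 of 699 regions (35.6%, 32.1 to 39.3). For all distal H3K27ac peaks the share was 37.4% (34.04 to 40.8) with MOF and 32.1% (31.2 to 32.9) without, and these intervals did not overlap. The interval of the regions did overlap that of the distal peaks without MOF. When each gene was counted once and genes without H3K4me3 were left out, the shares were 41.5% (37.4 to 45.8) and 39.3% (37.7 to 40.8), beside 42.4% (41.5 to 43.3) of all protein-coding genes with H3K4me3. In this count the intervals overlapped. In the 45 regions of the epidermal, hair follicle and ciliary lists, it lay there for 16, and an AP-1 match lay at the H3K27ac summit in 5, beside 20.03% of all regions.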

How the data were processed

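Peak lists of newborn epidermis were analysed: MOF ChIPseq and Cut&Run for H3K27ac, H3K4me3 and Rfx2, out of 8 samples for 6 antibodies. The remaining libraries were not analysed here. Reads were aligned to mm10 with Bowtie2 and peaks called on each library with MACS2 by the authors, with no control library stated. The deposited H3K27ac, H3K4me3 and Rfx2 lists gave, for each peak, a score, the fold enrichment (a ratio over local background) and the significance as −log10 p-value and as −log10 q-value. The deposited MOF list gave a score of unstated scale and an inner stretch only. It is longer than the study's own count, so it may be an unfiltered call. The H3K4me3 list is attached to the repeat library but not named as one. The lists hold no read counts; the study states raw and mapped reads for each library, and these totals were not used.

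Overlaps, gaps and TSS distances were computed in Python 3.11.15 with pandas 2.3.3 (minimum overlap 1 bp) and checked on 20000 simulated peaks against bedtools 2.31.1, with 0 peaks called differently. TSSs came from curated RefSeq transcripts of GRCm38.p6, on which no peak passed a chromosome end. Genes were assigned by the nearest protein-coding TSS. Named regions were the 10 highest by MOF score, the 10 highest by H3K27ac fold enrichment and the 12 highest by the latter whose nearest gene was in a list, the others being counted. Values of some single genes that this rule or the lists would name are not reported here. Trp63, Gli3, Sox9, Dsc1 and the genes with the most regions were picked after their values were seen. All regions and gene lists were chosen with earlier results of these data known. For counts of 0, upper limits marked as 3 counts took 3 as the largest count allowed. The other limits for counts of 0 are those of the exact intervals. No test was run, since each antibody had 1 list and peaks are not replicates.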

Additional observations from a re-analysis of the deposited data

How the results depend on the processing

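Of 33 alternative settings over 10 results, 19 stayed within 1.5 times the count or inside the interval and 14 did not. The 699 regions became 438 when the MOF centre had to lie in H3K27ac, 262 with the upper 50% of H3K27ac peaks by q-value and 287 with the upper 50% of MOF scores. They were 595 to 699 under the remaining settings, which include 610 with the inner stretch on H3K27ac, a setting chosen after seeing the data. The share of distal H3K27ac peaks with MOF became 9.34% in the upper 50% of H3K27ac, 2.77% with the upper 50% of MOF scores and 5.41% when 50% of the shorter peak had to be shared. These settings keep fewer or stronger peaks by construction. Regions within 1 kb of a TSS became 2.84% without those that had H3K4me3 within 1 kb, and the median TSS distance became 37095 bp with protein-coding transcripts only. AP-1 shares were 11.6% within 100 bp both for the regions and for MOF-free distal peaks, and 30.2% and 29.5% within 250 bp. In the upper 50% of H3K27ac peaks, the median width and fold enrichment of distal peaks with MOF became 594 bp and 5.86, against 518 bp and 5.71 without MOF, and the intervals of the fold enrichments (5.71 to 6.06 and 5.65 to 5.77) then overlapped. Epidermal genes with a region numbered 20, and 16 of 128 (12.5%) with a region within 50 kb of a TSS, beside 3.65% of all genes. No paired analysis was possible because a single list per antibody was used and no result came from a test.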

Other observations

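On chromosome X, which the rule left out, 0 of 197 MOF peaks carried H3K27ac without H3K4me3, although 165 H3K27ac peaks there lacked H3K4me3. The count of 0 allows a share of up to 1.52% (3 counts), beside 4.04% of MOF peaks on chromosomes 1 to 19. The reason for this difference was not tested. The GAGA motif (GAGAGAGA), bound in flies by a factor of active chromatin, was found at 29 of the 699 regions (4.15%, 2.80 to 5.90) and 4.40% of MOF-free distal H3K27ac peaks (4.03 to 4.78), beside 5.20% of genome windows. The KLF motif (CCNCNCCC) was found at 35.9% of the regions, 35.4% of MOF-free distal peaks and 61.7% of H3K27ac peaks with H3K4me3 and MOF, beside 17.4% of genome windows.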
